A study of Mus musculus with 12 samples.

Results

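Hedgehog reception was examined through 10 genes whose products receive the Hedgehog ligand at the cell surface or pass its signal to the Gli transcription factors. Members were chosen by symbol alone, as every probe on the array annotated to Gas1, Boc, Cdon, Ptch1, Hhip, Smo, Sufu, Gli1, Gli2 or Gli3, out of 19057 annotated genes. These genes had 21 of the 45281 probes, and 19 of the 21 were measured, meaning a detection p below 0.05 on at least 3 of the 12 arrays, as were 24978 probes in all. The 2 probes left out, 1 for Boc and 1 for Sufu, were detected on 0 arrays in every group, so each of the 10 genes kept at least 1 probe.

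RNA on the arrays came from the developing eye of E10.5 mouse embryos. The tissues were the distal optic vesicle, which becomes the retina, and the surface ectoderm facing it, which becomes the lens. There were 3 arrays for each of 4 groups: Bmp4 KO optic vesicle, WT optic vesicle, Bmp4 KO surface ectoderm and WT surface ectoderm. Embryos of both genotypes came from a mixed C57BL6 and FVB background, and in KO embryos Bmp4, a secreted BMP ligand, was deleted in the optic vesicle. The Cre driver, the form of the deleted allele and the alleles that WT embryos carried are not given in the sources used here. The tissues were cut by laser from 10 µm sections and 15 ng of RNA was amplified per sample. The design text names 3 embryos per genotype and pooled RNA, so the 3 arrays of a group may be repeats of a pool, and p-values then measure only technical spread.

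In the Hedgehog pathway a secreted ligand such as Sonic hedgehog binds the receptor Patched (Ptch1), and bound Patched no longer holds back the membrane protein Smoothened (Smo). Gas1, Boc and Cdon are co-receptors that help present the ligand to Patched, while Hhip binds ligand and takes it out of circulation. Active Smoothened releases the Gli proteins from Sufu. Gli2 then acts mainly as an activator, Gli3 mainly as a repressor where signal is low, and Gli1 is an activator whose own transcription, like that of Ptch1 and Hhip, is a standard readout of signalling. In the early eye, Sonic hedgehog from the ventral midline of the forebrain favours optic stalk and ventral vesicle fates, and Bmp4 marks the dorsal and distal vesicle.

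The arrays matched their labels. Each of the 12 arrays correlated best with an array of its own group, and between 45% and 46.7% of probes were detected per array. The deleted gene checked the labels in vesicle: the brightest Bmp4 probe read 4.59 ± 0.51 in KO optic vesicle (detected on 1 of 3 arrays) and 8.26 ± 0.04 in WT optic vesicle (SD, n = 3 arrays each), a log2 difference of -3.67 (limma, Benjamini-Hochberg adjusted p = 0.00015). As the KO value was near background, the size of this difference depended on the processing, from -3.82 to -1.97, and it passed under all 9 alternatives. A second Bmp4 probe differed by -1.12 and did not pass (adjusted p = 0.48). In surface ectoderm the brightest Bmp4 probe differed by -1.10 (limma adjusted p = 0.18) and the second by 1.23 (limma adjusted p = 0.25). These went opposite ways, each without overlap, and did not pass, so Bmp4 does not check the labels in ectoderm. The position of these probes relative to the deletion is not given. Markers of surface ectoderm sat in the right tissue, with 6 of 7 lower in WT optic vesicle than in WT surface ectoderm and 7 of 7 lower in KO optic vesicle than in KO surface ectoderm, while of 5 measured neural retina markers 2 were higher and 1 lower in WT optic vesicle and 3 were higher in KO optic vesicle. Rax and Lhx2 were higher in vesicle in both genotypes, Pax6, which the lens ectoderm also expresses, was lower in WT vesicle (-0.54) and higher in KO vesicle (0.51), and Six3 and Hes1 did not pass. Of 5 measured lens placode markers 4 were lower in KO than in WT surface ectoderm.

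In KO surface ectoderm 3 of the 19 Hedgehog probes were higher than in WT surface ectoderm and 0 were lower: the brightest Gli3 probe, the brightest Gli2 probe and the only Gas1 probe. In KO optic vesicle 1 probe was higher than in WT optic vesicle, again the brightest for Gli3, and 0 were lower. The readout genes Gli1, Ptch1 and Hhip passed in neither tissue. The members called were 15.8% of those tested in surface ectoderm, where 3.25% of all measured probes were called, and 5.26% in optic vesicle, where 1.17% of all probes were called (limma over all 24978 probes, two-sided, Benjamini-Hochberg adjusted p below 0.05). By direction, 1.52% of all probes were called higher and 1.73% lower in surface ectoderm, and 0.681% higher and 0.488% lower in optic vesicle. The probes of a gene are not independent, and 3 and 1 calls are small counts.

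Across the 19 probes the median log2 difference, KO minus WT, was 0.56 in surface ectoderm, against 0 over all probes, and ran from -0.52 to 1.50. In optic vesicle the median was 0.43, against -0.01 over all probes, with a range from -0.90 to 1.00. By sign, 13 probes were above 0 and 6 below in surface ectoderm, where 49.9% of all probes were above 0. In optic vesicle 12 were above 0 and 7 below, where 49.3% of all probes were above 0. Genes with several probes count more than once here, so these counts are descriptions. Probes whose KO and WT values did not overlap made up 15.8% of the members in surface ectoderm and 17.2% of all probes there, so that share was close to background. In optic vesicle 4 probes lay wholly above WT and 2 wholly below, 31.6% of the members against 19% of all probes, of which 9.12% lay wholly above and 9.89% wholly below. Values here are neqc-normalised log2 intensities, on which a difference of 1 is a 2-fold change. Because tissue was measured in bulk, fewer cells of a type and less RNA per cell cannot be told apart.

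**Figure D1:**
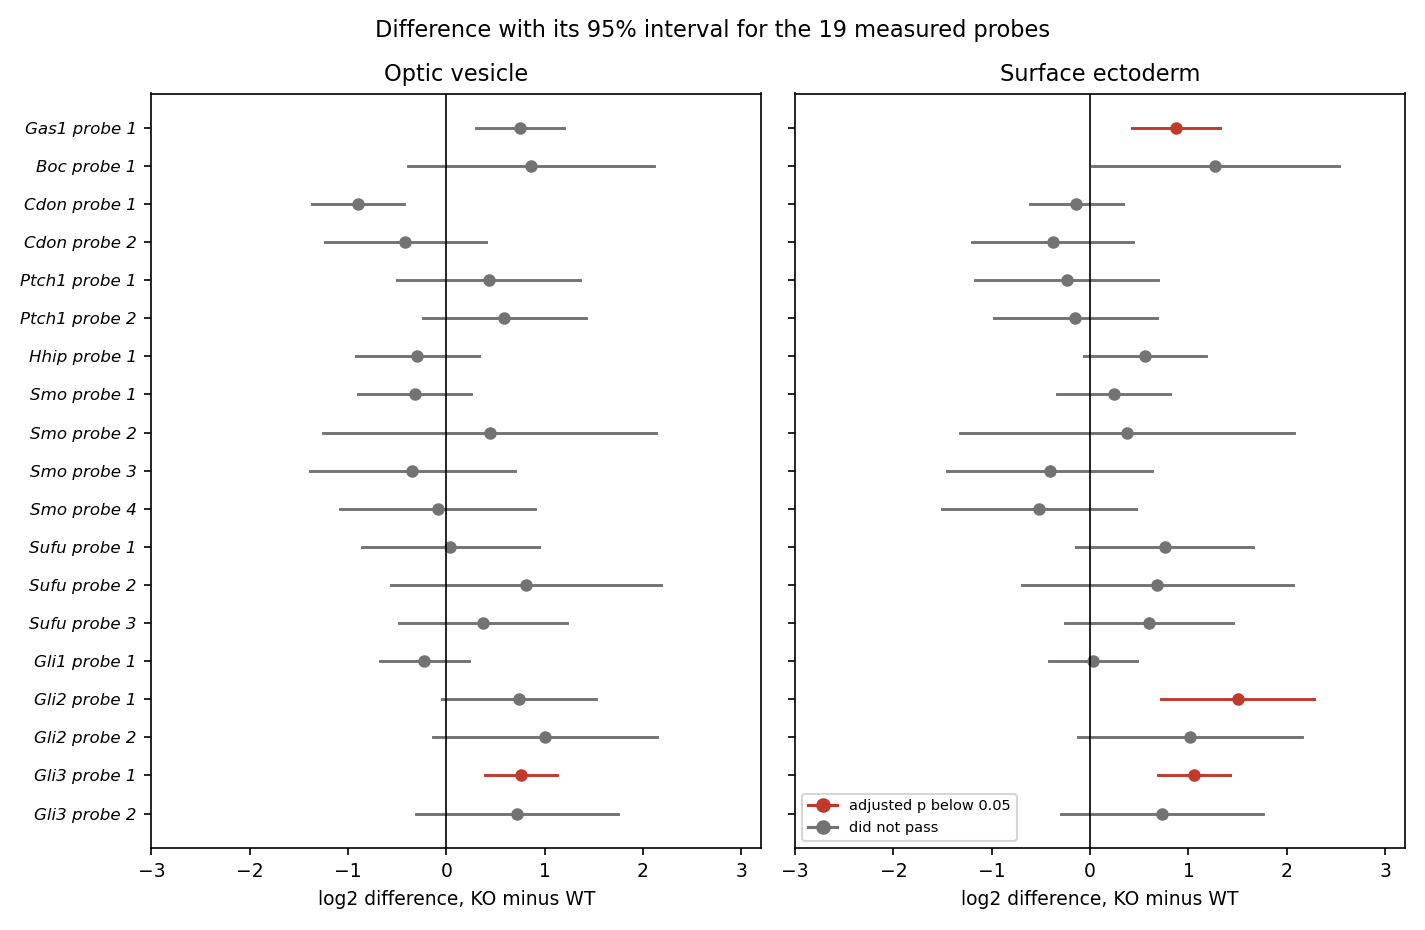
Log2 difference, KO minus WT, for the 19 measured probes of the 10 genes in optic vesicle and surface ectoderm. Points are the limma estimates, lines their 95% intervals, red marks an adjusted p below 0.05, and the probes of a gene are numbered from the brightest. Red points are Gli3 probe 1 in both tissues, and Gas1 probe 1 and Gli2 probe 1 in surface ectoderm.

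The 3 genes called in surface ectoderm are shown with the 250 bases before a RefSeq start of the gene, because they were the members called there. The sequences are those of RefSeq on mouse build GRCm38.p6, in which 8 of the 10 genes matched. They are written 5′ to 3′ on the gene's strand in lower case, with capitals marking the only letters searched for that were found, the GC-rich element GGCGCC that Smad1 and Smad5, the carriers of BMP signal, are known to bind.
Gli3, chr13:15463473-15463722, + strand: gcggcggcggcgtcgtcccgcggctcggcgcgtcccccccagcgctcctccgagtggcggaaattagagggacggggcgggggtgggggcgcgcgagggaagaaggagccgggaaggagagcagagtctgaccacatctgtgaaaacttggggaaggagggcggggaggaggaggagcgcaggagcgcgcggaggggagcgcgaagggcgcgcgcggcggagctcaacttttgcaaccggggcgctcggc
Gli2, chr1:119053620-119053869, - strand: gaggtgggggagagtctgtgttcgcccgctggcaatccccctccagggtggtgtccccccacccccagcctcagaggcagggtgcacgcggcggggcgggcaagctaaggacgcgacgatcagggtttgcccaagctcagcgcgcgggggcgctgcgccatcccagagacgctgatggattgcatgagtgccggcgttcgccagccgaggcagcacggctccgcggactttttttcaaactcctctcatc
Gas1, chr13:60177536-60177785, - strand: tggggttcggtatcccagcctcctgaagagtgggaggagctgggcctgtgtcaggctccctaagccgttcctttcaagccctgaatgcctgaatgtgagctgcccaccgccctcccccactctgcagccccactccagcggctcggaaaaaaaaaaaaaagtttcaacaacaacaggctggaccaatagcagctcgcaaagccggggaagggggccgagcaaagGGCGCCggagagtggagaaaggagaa

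The Gli3 window ends at the base before the annotated gene and holds 72.8% G and C, the Gli2 window 67.2% and the Gas1 window 58.8%. The Gli2 window lies inside the annotated span of the gene, which ends at 119054405. Of the windows not shown, that of Ptch1 (63565736 to 63565985) lies inside its gene, which ends at 63573460. The Cdon window (35451826 to 35452075) lies inside its gene, which starts at 35421528. The Hhip window starts at 80058009 and so lies partly inside its gene, which ends at 80058060. The motifs were searched on both strands, with overlapping matches allowed. GGCGCC, which reads the same on both strands, was found 26 bases before the start of Gas1 and 197 before that of Sufu. In Ptch1 it was 161 bases before the start used here, inside the annotated gene. It was thus in 3 of 8 members and in 9.59% of the 32851 promoter windows of this length. Of the genes called in surface ectoderm Gas1 held it, and Gli3 and Gli2 did not. All windows were counted without matching for G and C content, and enrichment was not tested. The Gli motif GACCACCCA was in 0 of 8 members and 0.225% of all windows, and the Otx motif TAATCC in 0 of 8 members and 6.25% of all windows. Only these letters in these windows were looked at.

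Among the co-receptors, Gas1, a lipid-anchored surface protein that binds Sonic hedgehog, was higher in KO surface ectoderm. Its probe (ILMN_2642397; gene on chromosome 13, 60174405 to 60177535) read 11.12, 10.47 and 11.03 in KO surface ectoderm, against 9.97, 10.11 and 9.90 in WT surface ectoderm. All KO ectoderm arrays lay above all WT ectoderm arrays. The difference was 0.87 (95% interval 0.43 to 1.32), a 1.83-fold higher level, with an adjusted p of 0.034 in limma. This call rested on few arrays. It held when KO replicate 2 was left out (adjusted p = 0.014) and was lost when any other ectoderm array was left out, with differences of 0.75 to 0.93 and adjusted p of 0.062 to 0.11. With slide as a block the adjusted p was 0.0084, and within slide 1 and slide 2 the difference was 1.03 and 0.57.

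In optic vesicle Gas1 read 9.58, 10.19 and 10.17 in KO arrays and 9.58, 9.11 and 9.0 in WT arrays. The lowest KO array equalled the highest WT array to 2 decimals. The difference of 0.75 (95% interval 0.30 to 1.20) did not pass (adjusted p = 0.13), but it did with slide as a block (adjusted p = 0.038) and, at the threshold, with array weights, and it was 0.61 within slide 1 and 0.82 within slide 2. Gas1 was also the only member to differ between tissues. It was lower in vesicle than in ectoderm by 0.77 in WT, where the values did not overlap (a difference of -0.77, adjusted p = 0.045, or 0.041 with slide as a block), and by 0.89 in KO (a difference of -0.89, adjusted p = 0.022, or 0.017 with slide as a block). The members called were 5.26% in each of these comparisons, close to the 5.76% of all probes called between WT tissues and the 5.16% called between KO tissues, of which the lower calls were 3.22% and 2.73% of all probes. The WT tissue call was kept only without WT vesicle replicate 1, and otherwise fell to differences of -0.81 to -0.65 with adjusted p of 0.076 to 0.18. The KO tissue call was lost without KO vesicle replicate 1, KO ectoderm replicate 1 or KO ectoderm replicate 3, with adjusted p of 0.11, 0.087 and 0.079. Within slide 1 and slide 2 the tissue difference was -0.46 and -0.85 in WT, and -0.88 and -0.59 in KO.

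Cdon, an immunoglobulin-family co-receptor, had the lowest KO minus WT value of all members. Its brighter probe (ILMN_1217117; chromosome 9, 35421528 to 35507652) read 7.75, 7.94 and 7.70 in KO optic vesicle, against 8.59, 8.93 and 8.58 in WT optic vesicle. The groups stood apart, with every KO vesicle array below every WT vesicle array. The difference was -0.90 (95% interval -1.37 to -0.43), and its adjusted p of 0.072 missed the threshold. It passed only where limma weighted the arrays by quality (adjusted p = 0.022), and it was -0.65 within slide 1 and -1.03 within slide 2. In surface ectoderm the same probe read 8.19, 8.29 and 8.53 in KO arrays and 8.76, 8.52 and 8.16 in WT arrays, which overlap, a difference of -0.14 (adjusted p = 0.83). The difference of these 2 effects, vesicle minus ectoderm, was -0.76 with an unadjusted p of 0.027 and an adjusted p of 0.36, so a tissue difference of the KO effect was not shown. The dimmer Cdon probe (ILMN_2727643) differed by -0.42 in vesicle and -0.38 in ectoderm, and passed in neither.

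Boc, the relative of Cdon, was near the detection limit. Its measured probe (ILMN_1227184; chromosome 16, 44485045 to 44558870) read 5.66, 4.46 and 6.54 in KO optic vesicle, against 4.53, 4.63 and 4.92 in WT optic vesicle. In surface ectoderm it read 5.36, 7.55 and 5.23 in KO arrays and 4.47, 4.58 and 5.27 in WT arrays. It was detected on 2 KO and 1 WT vesicle arrays and on 3 KO and 1 WT ectoderm arrays, and the groups overlapped in both tissues. The differences of 0.86 and 1.27 did not pass (adjusted p = 0.71 and 0.31), and in KO surface ectoderm replicate 2 stood more than 2 log2 units above the other arrays.

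**Figure D2:**
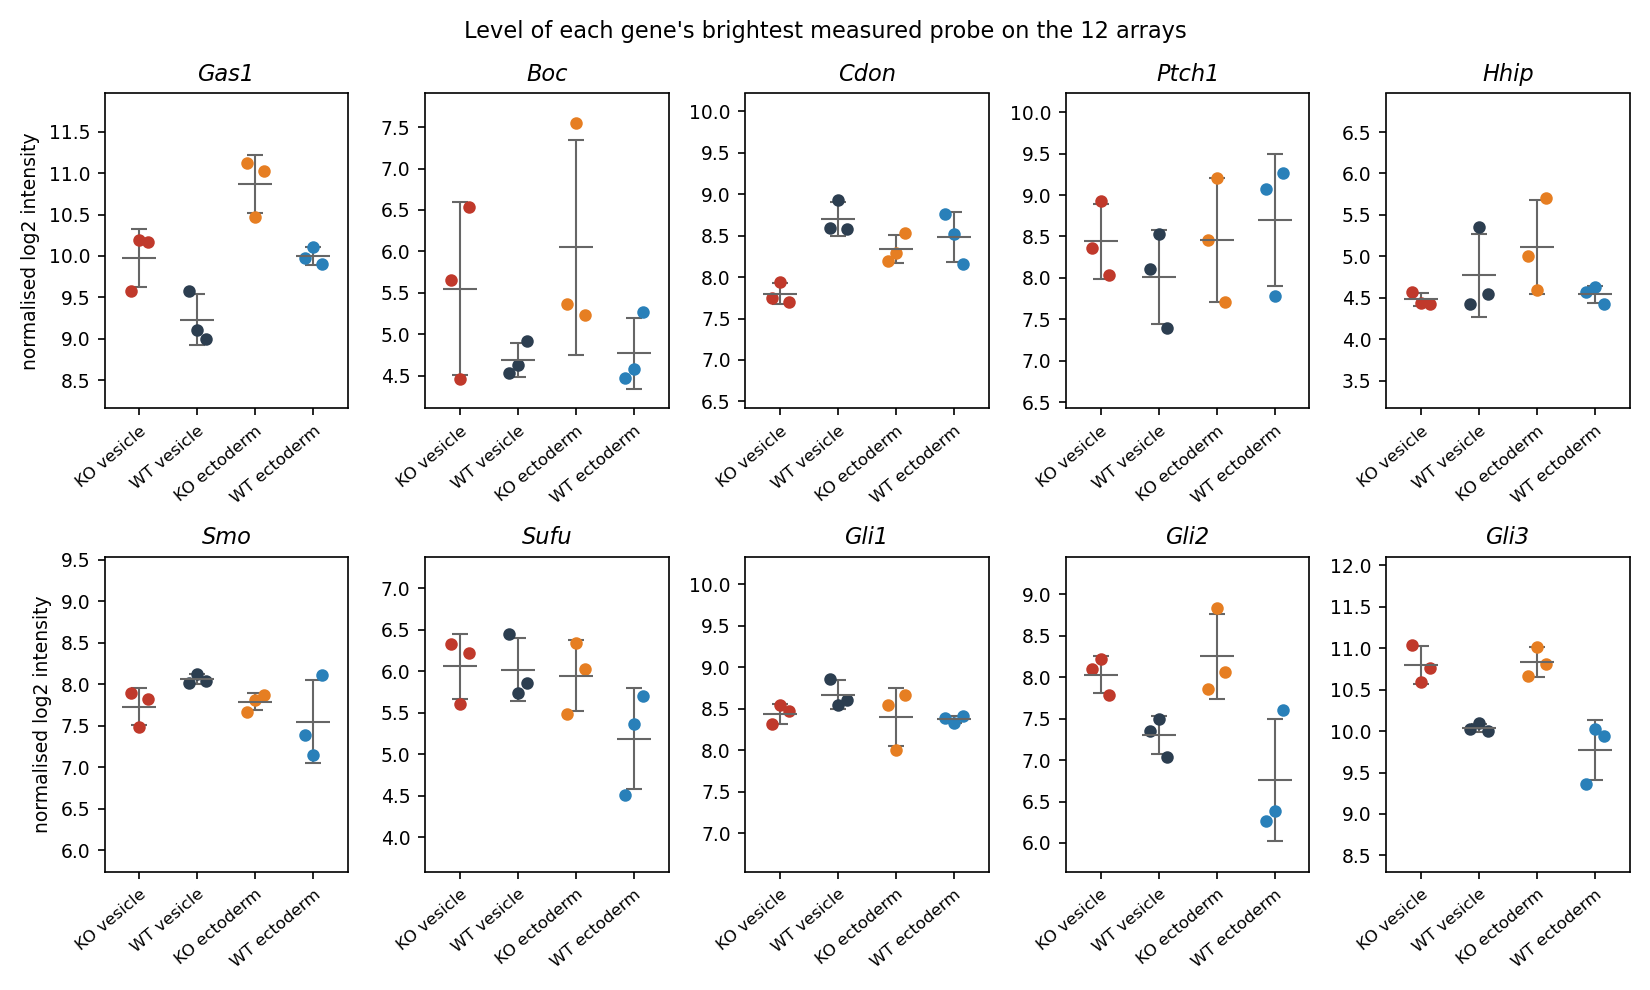
Normalised log2 intensity of the brightest measured probe of each of the 10 genes on every array. Points are arrays, bars the group mean and SD over 3 arrays, every panel spans the same number of log2 units but starts at its own level, and levels are not comparable between panels. For Gli3 all KO arrays (10.59 to 11.04) lie above all WT arrays (9.36 to 10.10) in both tissues.

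Ptch1, the receptor and a standard target of the pathway, varied as much within groups as between them. Its brighter probe (ILMN_2460224; chromosome 13, 63508328 to 63573460) read 8.36, 8.93 and 8.04 in KO optic vesicle, against 8.11, 8.53 and 7.39 in WT optic vesicle. In surface ectoderm it read 8.46, 9.21 and 7.71 in KO arrays, against 9.07, 7.78 and 9.26 in WT arrays. The groups overlapped in both tissues. The differences were 0.43 (95% interval -0.50 to 1.36; adjusted p = 0.84) and -0.24 (95% interval -1.17 to 0.69; adjusted p = 0.86), so the vesicle interval takes in a level 2-fold higher and the ectoderm interval a level 2-fold lower. The dimmer probe (ILMN_1248463) read 6.38, 6.47 and 6.42 in KO optic vesicle and 6.35, 5.42 and 5.75 in WT optic vesicle. These values did not overlap, but the difference of 0.59 did not pass (adjusted p = 0.69), and in surface ectoderm it was -0.15. Across the 12 arrays the 2 Ptch1 probes did not follow each other (Pearson r = -0.28).

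Hhip, the ligand-binding antagonist, was at background in most samples. Its probe (ILMN_2684250; chromosome 8, 79965850 to 80058060) was detected on 0 KO and 1 WT vesicle arrays, and on 2 KO and 0 WT ectoderm arrays. It read 5.01, 4.59 and 5.71 in KO surface ectoderm, against 4.57, 4.63 and 4.43 in WT surface ectoderm, a difference of 0.56 that did not pass (adjusted p = 0.38). In optic vesicle it read 4.57, 4.44 and 4.42 in KO arrays and 4.42, 5.35 and 4.55 in WT arrays. Groups overlapped in both tissues, and no fold is given for a probe at this level.

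Smo, the transducer that Patched restrains, had 4 measured probes. The brightest (ILMN_2986978; chromosome 6, 29735497 to 29761366) read 7.90, 7.48 and 7.82 in KO optic vesicle, against 8.02, 8.12 and 8.04 in WT optic vesicle. In surface ectoderm it read 7.67, 7.81 and 7.87 in KO arrays, against 7.39, 7.15 and 8.11 in WT arrays. All KO vesicle arrays lay below all WT vesicle arrays, by little, and the ectoderm groups overlapped. The differences of -0.32 (95% interval -0.90 to 0.25; adjusted p = 0.79) and 0.24 (95% interval -0.34 to 0.81; adjusted p = 0.76) did not pass. The other 3 Smo probes differed by 0.44, -0.35 and -0.09 in vesicle and 0.37, -0.41 and -0.52 in ectoderm, with no shared direction, and no probe of these passed.

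Sufu, the cytoplasmic protein that holds Gli factors back, was dim on its 3 measured probes. The brightest (ILMN_2441176; chromosome 19, 46396896 to 46488804) read 5.48, 6.34 and 6.03 in KO surface ectoderm, against 4.51, 5.36 and 5.70 in WT surface ectoderm. In optic vesicle it read 6.33, 5.61 and 6.22 in KO arrays, against 6.45, 5.74 and 5.86 in WT arrays. The groups overlapped in both tissues. Its differences were 0.76 in ectoderm (adjusted p = 0.43) and 0.04 in vesicle (adjusted p = 0.99). The other measured Sufu probes differed by 0.68 and 0.60 in ectoderm and by 0.81 and 0.37 in vesicle, and no probe of these passed.

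Gli3, the Gli factor that is mostly cut to a repressor without ligand, was higher in KO embryos in both tissues. Its brighter probe (ILMN_2449396; chromosome 13, 15463723 to 15730026) read 10.66, 11.01 and 10.81 in KO surface ectoderm, against 9.36, 10.02 and 9.94 in WT surface ectoderm. In optic vesicle it read 11.04, 10.59 and 10.76 in KO arrays, against 10.03, 10.10 and 10.00 in WT arrays. In each tissue every KO array was above every WT array. The ectoderm difference was 1.06 (95% interval 0.69 to 1.42), a 2.08-fold higher level, with a limma adjusted p of 0.0025. It stayed past the threshold without any 1 ectoderm array (differences of 0.85 to 1.18), was 1.05 within slide 1 and 1.07 within slide 2, and had an adjusted p of 0.002 with slide as a block.

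The Gli3 difference in vesicle was 0.76 (95% interval 0.39 to 1.12), a 1.69-fold higher level, with an adjusted p of 0.046. This call sat at the threshold. It was lost when any 1 of the 6 vesicle arrays was left out, with differences of 0.63 to 0.86 and adjusted p of 0.058 to 0.21. Within slide 1 it was 0.56, within slide 2 it was 0.86, and with slide as a block its adjusted p was 0.032. The effect in vesicle minus that in ectoderm was -0.30 (95% interval -0.81 to 0.21; adjusted p = 0.72). The dimmer Gli3 probe (ILMN_1215183) had differences of the same sign and did not pass. It read 7.27, 6.76 and 7.53 in KO optic vesicle and 6.01, 6.74 and 6.66 in WT optic vesicle, a difference of 0.72 (adjusted p = 0.70). In surface ectoderm it read 7.54, 8.05 and 6.17 in KO arrays and 6.67, 5.80 and 7.11 in WT arrays, a difference of 0.73 (adjusted p = 0.53). It separated KO from WT in vesicle and overlapped in ectoderm, and it correlated with the brighter probe at r = 0.53 over the 12 arrays.

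Gli2, the main activating Gli factor, had the largest KO minus WT difference of the 19 probes. Its brighter probe (ILMN_2522863; chromosome 1, 118834061 to 119054405) read 7.86, 8.83 and 8.06 in KO surface ectoderm, against 6.27, 6.39 and 7.60 in WT surface ectoderm. KO arrays were all above WT arrays, with WT replicate 3 close to the lowest KO array. The difference was 1.50 (95% interval 0.72 to 2.28), a 2.82-fold higher level, with a limma adjusted p of 0.038. It was lost without KO replicate 2, KO replicate 3, WT replicate 1 or WT replicate 2 of the ectoderm, with differences of 1.21, 1.59, 1.25 and 1.31 and adjusted p of 0.13, 0.064, 0.13 and 0.12. With slide as a block the adjusted p was 0.03, and the difference was 1.63 within slide 1 and 1.22 within slide 2. Without background correction the difference was 1.01.

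In optic vesicle the brighter Gli2 probe read 8.10, 8.22 and 7.79 in KO arrays, against 7.35, 7.50 and 7.04 in WT arrays. The groups did not overlap, but the difference of 0.74 (95% interval -0.04 to 1.52) did not pass (adjusted p = 0.53). The effect in vesicle minus that in ectoderm was -0.76 (95% interval -1.86 to 0.35; adjusted p = 0.65). The dimmer probe (ILMN_2668750) read 6.41, 6.98 and 5.88 in KO optic vesicle and 4.42, 5.88 and 5.97 in WT optic vesicle. In surface ectoderm it read 5.35, 6.80 and 5.00 in KO arrays and 4.54, 4.42 and 5.13 in WT arrays. It was detected on 3 KO arrays in each tissue, but on 2 WT vesicle arrays and 1 WT ectoderm array. Its differences were 1.00 in vesicle (adjusted p = 0.58) and 1.02 in ectoderm (adjusted p = 0.39), with overlapping groups. It correlated with the brighter probe at r = 0.73 over the 12 arrays.

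Gli1, the Gli factor whose transcription reports pathway activity, was the steadiest member. Its probe (ILMN_2774992; chromosome 10, 127329882 to 127341579) read 8.31, 8.54 and 8.47 in KO optic vesicle, against 8.86, 8.54 and 8.60 in WT optic vesicle. In surface ectoderm it read 8.54, 8.0 and 8.66 in KO arrays, against 8.39, 8.33 and 8.41 in WT arrays. The highest and lowest of its 4 group means were 0.29 apart, the smallest such spread among the brightest probes of the 10 genes. The KO minus WT differences were -0.23 in vesicle (95% interval -0.68 to 0.23; adjusted p = 0.83) and 0.03 in ectoderm (95% interval -0.42 to 0.48; adjusted p = 0.97). Both intervals leave out a 2-fold change in either direction.

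**Figure D3:**
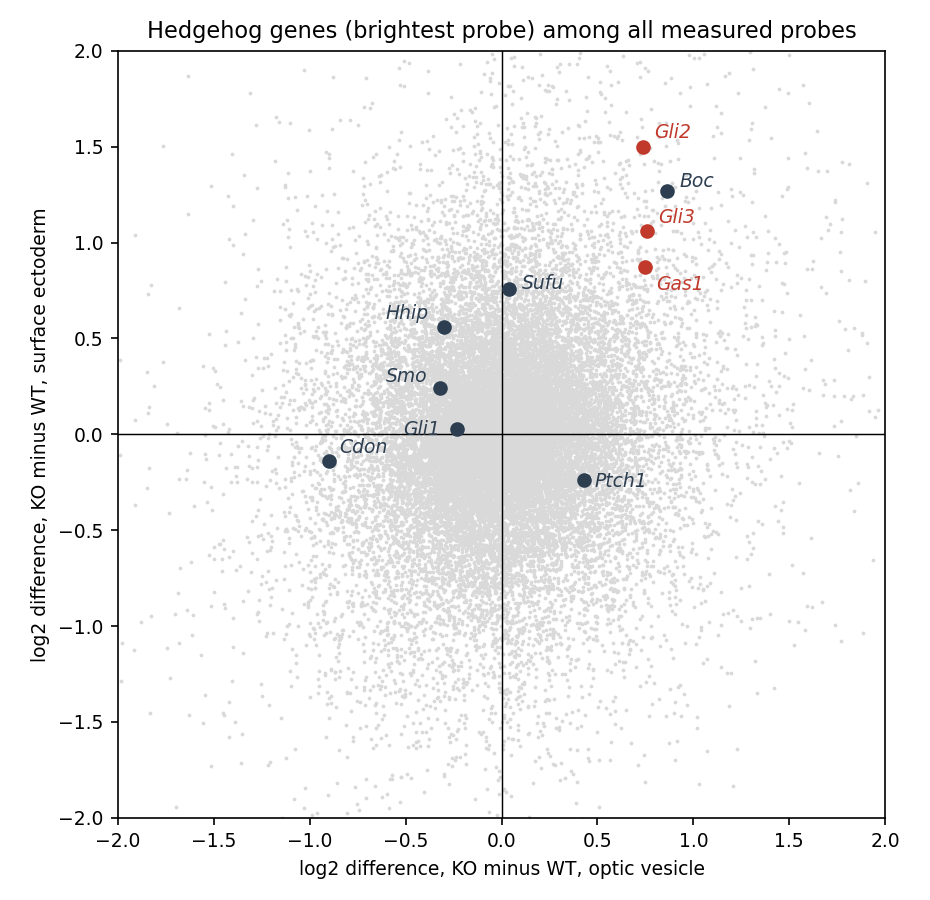
Log2 difference, KO minus WT, in surface ectoderm (y axis) against optic vesicle (x axis). Named points are the brightest probe of each of the 10 genes, red where that probe passed in at least 1 tissue, and grey points are the other measured probes, of which 338 lie beyond the plotted limit of 2 on an axis. Gli3, Gli2, Gas1, Boc and Sufu lie above 0 on both axes, Sufu at only 0.04 in vesicle. Cdon lies at -0.90 in vesicle and -0.14 in ectoderm, and Gli1 near the centre.

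None of the 19 probes passed the test of the difference between the KO effects in the 2 tissues, where 0.849% of all probes were called. At an unadjusted p below 0.05 there was 1 member, the brighter Cdon probe. In this comparison 6 probes were above 0 and 13 below, where below 0 means a larger KO minus WT value in ectoderm. The median was -0.12 against 0 over all probes, of which 49.9% were above 0. Some of the 13 lay close to 0, such as the dimmer Gli3 (-0.01) and Gli2 (-0.02) probes, and probes of a gene are not independent. A larger KO effect in ectoderm was thus not shown. The vesicle and ectoderm comparisons share no arrays, but they come from a single model with a shared estimate of the spread. Both tissues may also come from the same embryos, so the comparisons cannot be taken as independent.

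By level, Gli3 and Gli2 had the same order of groups. For Gli3 the means were 10.83 in KO surface ectoderm, 10.80 in KO optic vesicle, 10.04 in WT optic vesicle and 9.77 in WT surface ectoderm. For Gli2 they were 8.25, 8.03, 7.30 and 6.76 in that order. In both genes the KO groups overlapped each other, the WT groups overlapped each other, and the gap between the lower KO group and the higher WT group was clear of overlap. Gas1 was ordered by tissue and genotype, with means of 10.87 in KO surface ectoderm, 10.00 in WT surface ectoderm, 9.98 in KO optic vesicle and 9.23 in WT optic vesicle. Its highest group stood apart and the other neighbours overlapped. For Cdon the lowest group, KO optic vesicle at 7.80, stood apart from KO surface ectoderm at 8.34, and the other neighbours overlapped. For Smo the highest group, WT optic vesicle at 8.06, stood apart from KO surface ectoderm at 7.79. It did not stand apart from WT surface ectoderm, where replicate 3 read 8.11, and the other neighbours overlapped. For Ptch1, Sufu, Gli1, Boc and Hhip all neighbouring groups overlapped.

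Over the 12 arrays the levels of Gli2 and Gli3 went together most closely of all pairs of members (Pearson r = 0.87), and those of Cdon and Gli3 least (r = -0.65). Boc and Sufu each correlated with Gli3 at 0.68, and Gli1 with Gli3 at -0.27. These are descriptions of 12 arrays that fall into 4 groups and share the normalisation. Over all measured probes, the genes most like Gli3 were Lgals1 (r = 0.956), Tmsb10 (r = 0.942) and Got2 (r = 0.926). For Gli2 they were Vps53 (r = 0.939), Tufm (r = 0.905) and Supt5 (r = 0.904), and for Gas1 they were Slc16a9 (r = 0.953), Ikzf2 (r = 0.933) and Tpm1 (r = 0.925).

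Markers of other cells moved with the KO ectoderm group in which Gli3, Gli2 and Gas1 were higher. Of 9 measured markers of periocular mesenchyme and neural crest, out of 11 listed, 4 were higher in KO surface ectoderm (Twist1, Col3a1, Foxc2 and Alx4, by 2.80, 3.79, 3.45 and 3.67). Prrx1, Col1a2, Foxc1, Alx1 and Postn did not pass, at 1.36, 1.71, 0.22, 0.48 and 0.09, and Postn was not detected in KO surface ectoderm. The summed level of the list, on a linear scale, was 3549 to 3633 in KO surface ectoderm, against 770 to 880 in WT surface ectoderm. Of 6 measured endothelial markers, out of 7, 4 were higher in KO surface ectoderm, and their sum was 430 to 503 in KO arrays, against 149 to 198 in WT arrays, where Pecam1, Kdr, Emcn and Sox17 were not detected. Pigment epithelium markers were higher in KO surface ectoderm for 4 of 6 measured, out of 7, with sums of 965 to 1502 in KO arrays and 541 to 1086 in WT arrays. Of the 5 neural retina markers Pax6 was lower (-0.98, limma adjusted p = 8.9e-05) and 0 were called higher. Rax and Lhx2 were at 1.39 and 1.42 without overlap and did not pass (adjusted p = 0.1 and 0.07). Six3 and Hes1, at -0.73 and -0.43, did not pass either. The sum of this list was 1787 to 2325 in KO arrays, against 3424 to 3953 in WT arrays. It was no lower in WT surface ectoderm than in WT optic vesicle (3214 to 3428), so it does not separate the tissues. Of the 7 surface ectoderm markers the epidermal genes Trp63 and Perp were higher (2.58 and 3.27, adjusted p = 0.0011 and 0.0054) and 0 were called lower. Cdh1 was at -0.70 and Krt18 at 0.51, both without overlap, and neither passed (limma adjusted p = 0.1 and 0.21). The sums of this list were 6316 to 7651 in KO arrays and 7709 to 9395 in WT arrays. The part of these cells in the differences of Gli3, Gli2 and Gas1 was not tested.

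In optic vesicle, where Gli3 passed at the threshold, 2 of the 9 mesenchyme markers were higher in KO arrays (Alx4 and Postn, by 2.97 and 3.46), with sums of 825 to 1047 in KO optic vesicle, against 318 to 423 in WT optic vesicle. Alx1 was not detected in KO optic vesicle and Foxc1 not in WT optic vesicle. Pigment epithelium markers were higher in KO optic vesicle for 5 of 6 measured, Pmel by 4.20 among them, with sums of 5029 to 5283 in KO arrays and 1169 to 1316 in WT arrays. Of 6 endothelial markers 0 were called, and the sums of 193 to 277 in KO arrays and 197 to 220 in WT arrays overlapped. Of 5 measured erythroid markers, out of 6, 4 were higher in KO optic vesicle and 1 in KO surface ectoderm, with sums of 4688 to 5063 in KO and 1996 to 2121 in WT optic vesicle, and 11113 to 12305 in KO and 9833 to 10454 in WT surface ectoderm. Of the 7 surface ectoderm markers Krt18 was higher in KO optic vesicle (2.04, adjusted p = 5.1e-05), Cdh1 was at 0.85 without overlap and did not pass (adjusted p = 0.086), and the sum was 978 to 1153 in KO arrays, against 449 to 575 in WT arrays, where Trp63, Perp, Krt8 and Tfap2a were not detected. Of the 5 neural retina markers 0 were called, with sums of 3135 to 3633 in KO and 3214 to 3428 in WT optic vesicle. Of 4 listed markers of ventral forebrain and optic stalk, 2 were measured, Pax2 and Vax1, and neither passed. They went opposite ways, each without overlap, with Vax1 at 1.27 and Pax2 at -0.49 (limma adjusted p = 0.34 and 0.85). Their sums were 556 to 590 in KO and 550 to 636 in WT optic vesicle. The part of any of these in the Gli3 difference was not tested.

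The other genes of the pathway were taken from lists by role. Of 9 genes for ligands and their release, 4 were measured. Shh and Dhh, which encode ligands, and Disp2 were detected on 0 arrays, Ihh on at most 1 and Scube2 on at most 2, so ligand RNA was not detectable at the depth of these arrays. Scube3, whose secreted product belongs to the family that helps release lipid-modified Hedgehog, read 9.10, 8.93 and 8.80 in KO optic vesicle, against 7.66, 7.92 and 7.63 in WT optic vesicle. The groups were well apart. The difference was 1.21 (95% interval 0.78 to 1.63), a 2.31-fold higher level, with a limma adjusted p of 0.0058, and it was past the threshold without any 1 vesicle array (1.13 to 1.30). It was 1.28 within slide 1 and 1.17 within slide 2. A second Scube3 probe passed too, at 1.14 (adjusted p = 0.029), and another differed by 1.00 (adjusted p = 0.60).

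In surface ectoderm Scube3 read 9.64, 9.26 and 9.20 in KO arrays and 9.31, 8.95 and 9.46 in WT arrays, which overlap. Its KO effect in vesicle minus that in ectoderm was 1.08 and did not pass (adjusted p = 0.10). Between WT tissues Scube3 was lower in vesicle than in ectoderm (a difference of -1.50, adjusted p = 0.00026), and between KO tissues the difference was -0.42 (adjusted p = 0.29). None of the 4 genes passed in KO against WT surface ectoderm. The lowest p there were those of Scube1, another gene of the family, at 1.24 (adjusted p = 0.52), and of Scube3 at 0.13 (adjusted p = 0.84). Scube1 had a difference of 1.85 between WT tissues (adjusted p = 0.24), and between KO tissues the second lowest p was that of Hhat, an acyltransferase that adds a lipid to Hedgehog, at 0.71 (adjusted p = 0.59).

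Of the other receptors and co-receptors 3 genes were measured. Lrp2, the endocytic receptor megalin, which binds Sonic hedgehog, read 7.38, 7.60 and 8.32 in KO surface ectoderm, against 6.05, 5.90 and 5.58 in WT surface ectoderm. All KO ectoderm arrays were more than 1 log2 unit above all WT ectoderm arrays. The difference was 1.92 (95% interval 1.21 to 2.63), a 3.79-fold higher level, with a limma adjusted p of 0.0043; within slide 1 it was 1.87 and within slide 2 it was 2.02. It held without any 1 ectoderm array (1.65 to 2.12), but not in a fit of the ectoderm arrays alone (adjusted p = 0.075), and it was 1.12 without background correction. The other Lrp2 probes differed by 0.94 (adjusted p = 0.18) and 0.31 (adjusted p = 0.71), so the call is that of 1 probe. In optic vesicle 0 of the 3 genes passed. The lowest p were those of the glypicans Gpc3, at -0.19 (adjusted p = 0.62), and Gpc6, at 0.18 (adjusted p = 0.93).

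Gpc3, a glypican that competes with Patched for Hedgehog, differed between tissues. It was lower in vesicle than in ectoderm, by differences of -0.85 in WT (adjusted p = 0.00022) and -1.42 in KO (adjusted p = 2.8e-06), and its other measured probe ran the same way, at -1.84 and -2.55. In KO against WT surface ectoderm the brighter Gpc3 probe did not overlap between groups and missed the threshold, at 0.38 (95% interval 0.14 to 0.62; adjusted p = 0.082), and the other probe was at 0.15. In KO against WT optic vesicle the other probe was at -0.57 without overlap (adjusted p = 0.44). The KO effect in vesicle minus that in ectoderm was -0.57 for the brighter probe (adjusted p = 0.12). Lrp2 had differences of 1.10 between WT tissues (adjusted p = 0.072) and -0.76 between KO tissues (adjusted p = 0.25).

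Of 21 genes that relay the signal or process Gli proteins, 19 were measured and 0 passed in KO against WT in either tissue or between tissues in either genotype on its brightest probe, nor did the other 6 measured probes of these genes. The median difference was 0.04 in vesicle and 0.17 in ectoderm. The lowest p in vesicle were those of Prkaca, the kinase subunit that primes Gli for processing, at 0.39 (adjusted p = 0.37), and Spop, which targets Gli for degradation, at 0.37 (adjusted p = 0.37). In ectoderm they were those of the kinase gene Ulk3, at -0.37 (adjusted p = 0.12), and Tulp3, a ciliary trafficking gene, at 1.16 (adjusted p = 0.27). Between WT tissues they were those of Arrb2, at 1.76, and Cul3, at 0.29, and between KO tissues those of Tulp3, at -1.49, and Evc2, at 1.27.

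Of 13 genes for transport in the primary cilium, where the pathway signals in mammals, 12 were measured and 0 passed in any of these comparisons on their brightest probe, nor did their other 14 measured probes. The median difference was -0.25 in vesicle and -0.05 in ectoderm. The lowest p in ectoderm were those of Kif3a, a motor of transport into the cilium, at -0.95 (adjusted p = 0.07), and Dync2h1, the motor of the return path, at -0.80 (adjusted p = 0.19). In vesicle they were those of Rpgrip1l, at -1.12 (adjusted p = 0.54), and Ift172, at 0.51 (adjusted p = 0.64). Between WT tissues they were those of Ift57, at 0.86, and Rpgrip1l, at 1.45, and between KO tissues those of Dync2h1, at 0.79, and Ift88, at -1.54.

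Of 14 genes known as targets of the pathway in various tissues, 7 were measured. The ventral neural tube genes Nkx2-2, Nkx2-1 and Foxa2 and the mesenchymal targets Foxf1 and Foxl1 were detected on 0 arrays, and Foxf2 on at most 1. Ccnd1, cyclin D1, read 10.97, 11.29 and 10.85 in KO surface ectoderm, against 12.21, 12.23 and 12.22 in WT surface ectoderm, and 11.46, 11.33 and 11.35 in KO optic vesicle, against 12.12, 12.40 and 12.19 in WT optic vesicle. It was lower in KO arrays in both tissues without overlap. The differences were -1.18 in ectoderm (limma adjusted p = 2e-05) and -0.86 in vesicle (adjusted p = 0.00053). A second probe gave -1.24 and -0.92, and both passed, while another gave -0.18 and -1.44 and did not. Within slides 1 and 2 the values were -1.31 and -0.92 in ectoderm and -0.79 and -0.89 in vesicle.

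Bcl2, which encodes a brake on apoptosis, had KO effects that differed between the 2 tissues on its brightest probe. There the effect in vesicle minus that in ectoderm was -1.98 (limma adjusted p = 0.015, or 0.062 with the replicate number as a block). The other 7 measured Bcl2 probes did not pass this test. Its brightest probe read 9.75, 9.75 and 8.86 in KO surface ectoderm, against 8.16, 8.55 and 8.60 in WT surface ectoderm, a difference of 1.02 (adjusted p = 0.036). In optic vesicle it read 8.67, 8.27 and 8.82 in KO arrays, against 9.61, 9.36 and 9.66 in WT arrays, a difference of -0.96 that did not pass (adjusted p = 0.095). Neither tissue's groups overlapped, and the signs were opposite. The ectoderm call was kept without KO replicate 3 (adjusted p = 0.0046) and lost without any other ectoderm array, with adjusted p of 0.054 to 0.13. Of the 8 measured Bcl2 probes the other 7 did not pass in ectoderm and ran from -0.63 to 1.02. Between WT tissues Bcl2 was higher in vesicle (1.11, adjusted p = 0.014), which was lost without WT vesicle replicate 1, WT vesicle replicate 3 or WT ectoderm replicate 1 (adjusted p = 0.058, 0.064 and 0.06). Ccnd2, cyclin D2, was lower in vesicle than in ectoderm by differences of -1.08 in WT (adjusted p = 0.0057) and -1.31 in KO (adjusted p = 0.0015), while Bcl2 between KO tissues differed by -0.87 (adjusted p = 0.058). Besides second probes of Ccnd1 and Ccnd2, the only probe of these genes that was not the brightest of its gene and passed was one for Snai1, a transcription factor of epithelial-mesenchymal transition, at 1.02 in KO against WT surface ectoderm (adjusted p = 0.027) and -0.90 between KO tissues (adjusted p = 0.039). The brighter Snai1 probe was at 0.92 and -0.71 there and did not pass (adjusted p = 0.051 and 0.12), and Snai1 is named after its values were seen.

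**Figure D4:**
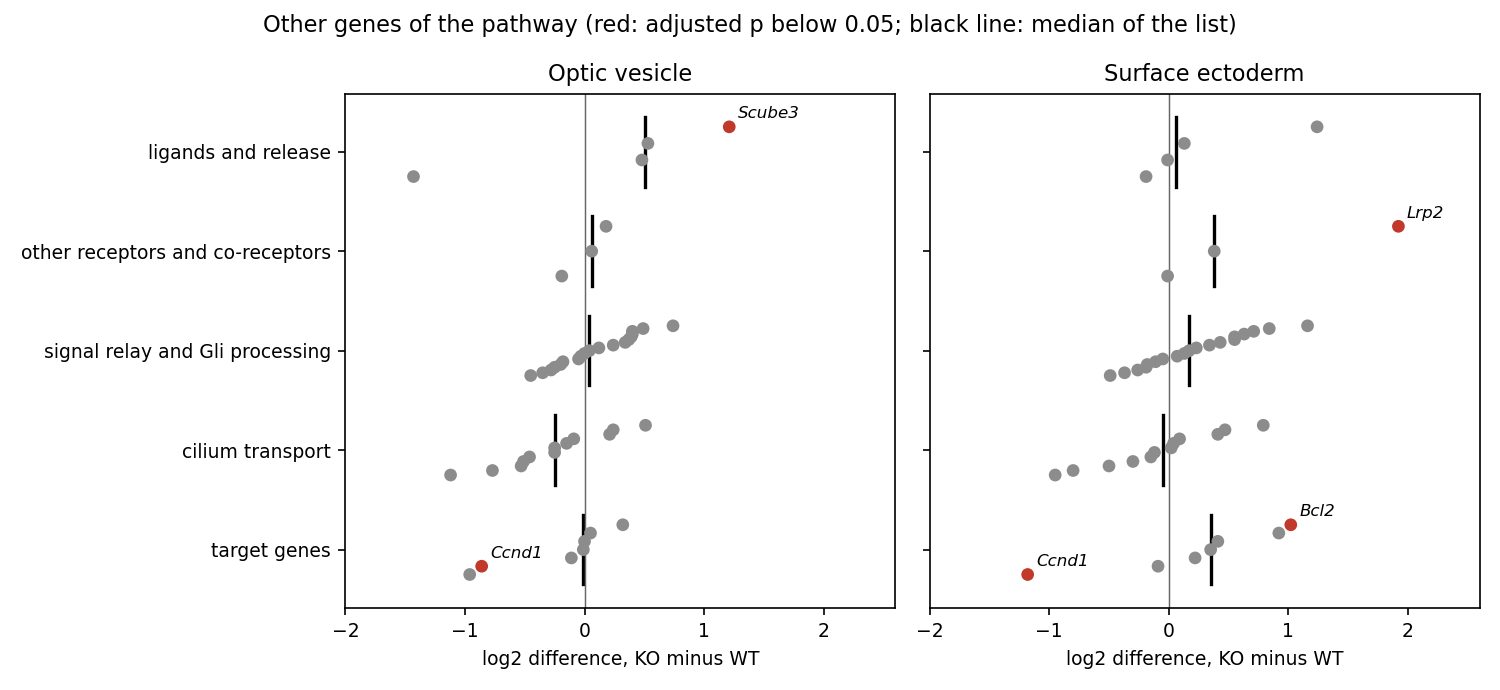
Log2 difference, KO minus WT, of the other measured genes of the pathway by list, in optic vesicle and surface ectoderm. Each point is the brightest probe of a gene, red marks an adjusted p below 0.05, and the black line is the median of the list. Red points are Scube3 (1.21) and Ccnd1 (-0.86) in vesicle, and Lrp2 (1.92), Bcl2 (1.02) and Ccnd1 (-1.18) in ectoderm.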

How the data were processed

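Per the file headers, the authors deposited scanner output from GenomeStudio (version not stated). Per the file headers it gives, for every probe, a linear intensity averaged over beads, the standard error of that intensity, a bead number (unit: other, median 42 per value) and a detection p-value. The authors also deposited processed intensity values for the same arrays; these are linear, start below 0 and have column medians of 9.40 to 9.42, and the background and normalisation steps behind them are not stated. They ranked probes like the scanner values of their own array (Spearman rho 1, at most 0.867 with another array), so scale and direction are known, and served as an alternative.

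Normalisation of the scanner intensities used neqc from limma 3.58.1 in R 4.3.3, with controls inferred from the detection p-values, an offset of 16, quantile normalisation and log2. Probes with a detection p below 0.05 on at least 3 of 12 arrays were kept. Of 45281 probes 34885 carry 1 symbol in the platform annotation, 18 several and 10378 none. A single limma model (lmFit, eBayes with trend) over 12 arrays and 24978 probes gave the KO against WT and vesicle against ectoderm comparisons and the difference of the KO effects; every adjusted p is Benjamini-Hochberg over all these probes. The brightest probe of a gene is its kept probe with the highest mean, and levels of different probes were not compared.

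Arrays lay on 2 slides that each held all 4 groups with 1 or 2 arrays a group; values within a slide are differences of these and carry no usable test. Alternatives were other background, filter and scaling choices, 1 probe per gene, slide or replicate number as a block, array weights, fewer arrays and each array left out. The number of arrays limits the precision. The pipeline was tested on simulated data. The 10 members, the pathway and marker lists and the naming rule (every member probe, the pathway genes that passed or had the lowest p, and the 3 genes most like a called member) were chosen with earlier results of these data known.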

Additional observations from a re-analysis of the deposited data

Results flagged for a closer look

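On the brightest probe of the Hedgehog target gene Bcl2, the KO effects differed between the tissues by a test of the difference itself. The effect in optic vesicle minus that in surface ectoderm was -1.98 (95% interval -2.73 to -1.24, limma adjusted p = 0.015), from -0.96 in vesicle and 1.02 in ectoderm. The difference was -2.28 to -1.82 when each array was left out in turn (adjusted p of 0.0031 to 0.05), -2.29 within slide 1 and -1.93 within slide 2, and its adjusted p was 0.062 with the replicate number as a block. Of the other 7 Bcl2 probes, 2 had similar differences that did not pass, at -1.90 (adjusted p = 0.18) and -1.52 (adjusted p = 0.36), and the remaining 5 lay between -0.84 and -0.08 and did not pass.

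For Ift57, which encodes a protein of transport in the cilium, KO and WT values did not overlap in either tissue and went opposite ways, by -0.51 in vesicle and 0.79 in ectoderm. The difference of the effects was -1.30 and did not pass (limma adjusted p = 0.23).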

How the results depend on the processing

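No log2 difference of a member probe that was called changed sign under any alternative tried. The Gli3 call in surface ectoderm passed under 9 of 9 alternatives (0.99 to 1.06) and without any 1 ectoderm array. The other member calls did not all hold, and the causes were not tested. The members called in KO against WT optic vesicle, 1 in the main setting, were 0 without the filter on dim probes, 2 with slide as a block, 3 with array weights and 0 to 0 with 1 array left out. In KO against WT surface ectoderm they were 3, then 1 without the filter, 1 with array weights, 1 in a fit of the compared arrays alone, and 1 to 2 with 1 array left out. Between WT tissues they were 1, then 0 without background correction, 0 without the filter and 0 to 1 with 1 array left out, and between KO tissues 1, then 0 in a fit of the compared arrays alone and 0 to 1 with 1 array left out. Calls over all probes changed too, to 151 to 196 in vesicle and 555 to 739 in ectoderm with 1 array left out. Further such counts are given below. For settings without one, such as slide as a block, the member counts have no share of all probes beside them.

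Arrays with the same replicate number did not deviate together over all measured probes. The residual correlation was -0.04 to 0.01 within genotype and -0.04 to 0 within tissue, over 6 pairs each. Noise of single probes can hold such a correlation near 0 even for paired arrays, so pairing was neither shown nor excluded. With the replicate block the members called were 0 in KO against WT optic vesicle (Gli3 adjusted p = 0.077), 1 in KO against WT surface ectoderm (Gas1 0.062, Gli2 0.058, Gli3 0.0061), 0 between WT tissues and 0 between KO tissues, and 92 of all probes were called for the difference of the KO effects.

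Over all probes, the 292 calls in vesicle were 519 with array weights and 151 to 196 with 1 array left out. The 811 in ectoderm were 523 without the filter, 253 in a fit of the compared arrays alone and 482 with array weights. The 212 for the difference of effects were 106 without the filter and 90 to 197 with 1 array left out. The 1438 between WT tissues were 878 to 1194 with 1 array left out, and the 1290 between KO tissues were 755 in a fit of the compared arrays alone and 856 to 1159 with 1 array left out. The measured Boc and Hhip probes, all 3 measured Sufu probes, 2 Smo probes and the dimmer Gli2 probe were undetected on part of the arrays, which bounds what their differences can show.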
